A study of Rattus norvegicus with 9 samples.

Results

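Thrombin was given to primary rat chondrocytes in rat plasma, alone or together with an inhibitor, and the question here is what the inhibitor changed. The comparison takes the 3 libraries titled RPTi (rat plasma, thrombin and inhibitor, 24 h) against the 3 titled RPT (rat plasma and thrombin, 24 h), which are 6 of the 9 libraries in the series. It covers every gene of the deposited table: 18924 genes had a row, and 13856 of them had enough counts to be tested. All cells came from cartilage of rats of the SD strain and were used at passage 1 or 2 after routine culture in serum-containing medium. The remaining 3 libraries, from cells in rat plasma alone for 24 h (RP), shared the plasma and the time with both groups and are shown only as a reference level. The labels do not name the inhibitor, its target or its dose, and the series title places thrombin upstream of MEK, ERK and Stat3. Since nothing says that the libraries of a group were separate cultures or animals, p-values reflect only how far these libraries differ among themselves, a spread that may be technical. In bulk RNA, fewer cells of a type and less RNA per cell cannot be told apart.

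Thrombin is the protease that turns fibrinogen into fibrin. It also cuts protease-activated receptors at the cell surface, which signal through G proteins to the RAS, RAF, MEK and ERK kinases. Active ERK switches on immediate early transcription factors together with its own phosphatases and Sprouty proteins, so the RNA of these feedback inhibitors is commonly read as a record of ERK output. In cartilage, ERK signalling is known for its part in chondrocyte growth, in the loss of the cartilage programme and in the expression of collagenases.

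The libraries held 31877265 to 37125039 counts, so 1 count was worth between 0.0261 and 0.0323 CPM (counts scaled to a common library size by TMM). Correlations of log2 CPM were at least 0.988 within RPT and 0.989 within RPTi, and 0.965 to 0.968 between the groups. In RPTi, 18.9% to 19.1% of counts went to the top 20 genes of a library, against 16.1% to 16.5% in RPT, and mitochondrially encoded genes made up 2.67% to 3.05% and 3.02% to 3.20%. The cells carried the RNA of chondrocytes: all 17 chondrocyte markers were tested, 15 rose and 1 (Chad) fell, and their summed level was 32880 to 35030 CPM in RPT and 77690 to 84610 CPM in RPTi. Markers of macrophages summed to 46.0 to 48.0 CPM in RPT and 24.5 to 28.7 CPM in RPTi, nearly all of it Cd14 and Cd68, while the leukocyte gene Ptprc had at most 4 counts in any library of these groups and Aif1 and C1qb had 0. Of 4 macrophage markers tested, 2 fell (Cd14 and Cd68), and their part in the results on inflammation was not tested. Endothelial markers summed to 11.3 to 18.0 CPM in RPT and 12.9 to 16.7 CPM in RPTi, most of it Egfl7. Of 3 tested, Plvap fell from 3.77, 3.71 and 2.47 CPM to 0.835, 0.904 and 1.12 CPM and Egfl7 and Tek did not pass, and the defining genes Cdh5 and Emcn had at most 2 counts and 1 count in these 6 libraries. Markers of other tissues moved in both directions: of 12 synovial and fibroblast markers tested, 5 rose and 5 fell, of 8 markers of muscle and fat 4 rose and 2 fell (1 fell without RPT replicate 1 or RPTi replicate 2), 2 of 6 osteoblast markers rose and 2 fell (1 fell without RPT replicate 2, RPT replicate 3, RPTi replicate 1 or RPTi replicate 2), and of 4 Schwann and glial markers 2 rose.

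Between RPT and RPTi, 2825 genes rose and 2920 fell at an adjusted p below 0.05, so that 41.5% of tested genes were called, 20.4% upward and 21.1% downward. These shares are the background against which every list below is read. A change of at least 1 on the log2 scale was reached by 801 risen genes (5.78% of those tested) and 495 fallen ones (3.57%). With library totals in place of TMM the split turned to 2359 risen and 3788 fallen genes (38.4% rising against 49.2%), and the median log2 fold change of all tested genes moved from -0.01 to -0.08; with limma on log2(FPKM + 1) the split was 2318 and 3661 (38.8% rising). At the other end, 1469 genes (10.6%) had a 95% interval within 0.25 of 0 on the log2 scale.

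**Figure D1:**
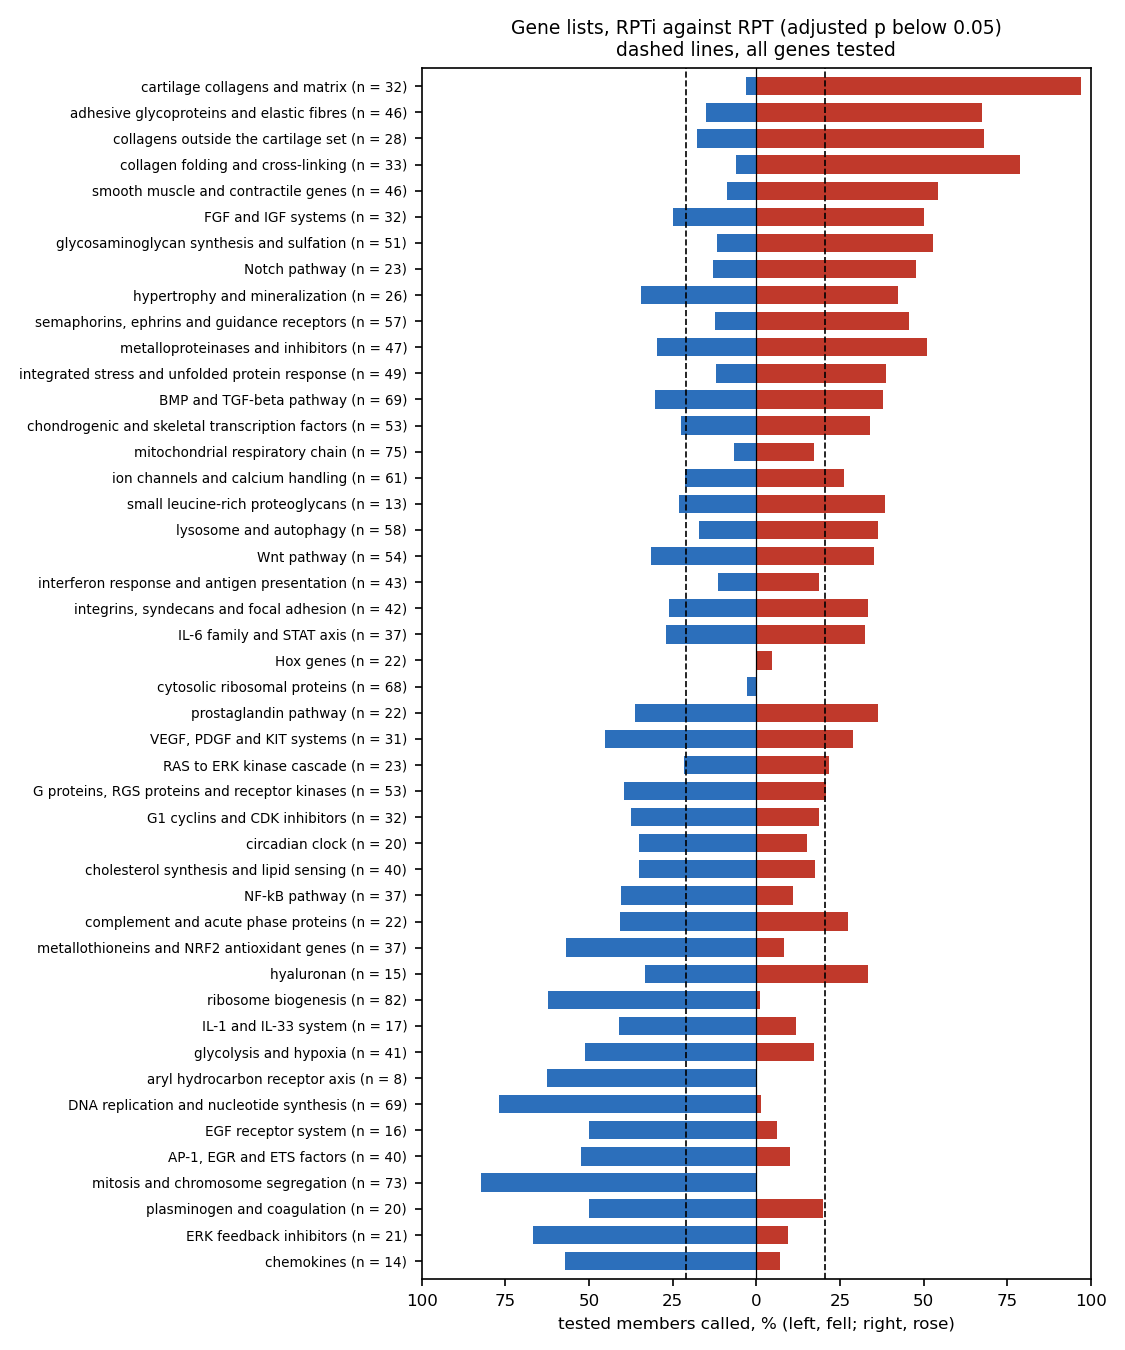
Share of the tested members of each gene list that fell (blue, to the left) or rose (red, to the right) in RPTi against RPT, in percent, ordered by the median log2 fold change of each list. Dashed lines mark the shares over all genes tested, 21.1% and 20.4%; cartilage matrix stands at the top with 96.9% of members risen, and mitosis has 82.2% of members fallen.

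The genes with the largest falls included a secreted proteoglycan, a cytokine receptor and a chromatin protein. Esm1 (ENSRNOG00000010797), the endocan proteoglycan, stood at 11.1, 9.13 and 13.02 CPM in the RPT libraries and 0.473, 0.388 and 0.251 CPM in RPTi, a 29.7-fold lower level (log2 fold change -4.89, SE 0.23, adjusted p = 5.29e-09). The IL-33 receptor Il1rl1 (ENSRNOG00000014835) read 271, 259.8 and 346 CPM in RPT and 16.2, 19.8 and 16.3 CPM in RPTi (-4.07, SE 0.12, adjusted p = 3.65e-10). The architectural chromatin protein Hmga1 went from 492, 578 and 456 CPM to 31.7, 40.1 and 38.5 CPM (-3.79, SE 0.12). All RPTi libraries lay below all RPT libraries for these genes, and for each they also lay below the RP libraries, which held 5.59, 4.41 and 5.18 CPM of Esm1, 267, 239 and 253 CPM of Il1rl1 and 175, 197 and 157 CPM of Hmga1. Osteopontin, Spp1, a phosphoprotein of bone and inflamed cartilage, was far more abundant: it was at 4936, 4563 and 5966 CPM in RPT and 422, 470.4 and 405 CPM in RPTi, an 11.9-fold lower level. Further falls under the same rule were those of the heparan sulfate enzyme Ndst3 (-3.41), the calcium-activated potassium channel Kcnn4 (-3.36), the aldo-keto reductase Akr1b8 (-3.33), the calcium channel Cacna1i (-3.09) and the uridine phosphorylase Upp1 (-3.06). Their SEs were 0.11 to 0.19, with no overlap between the groups.

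The largest rises included secreted antagonists and genes of muscle. Chrdl2, a chordin-like antagonist of bone morphogenetic proteins (BMPs), had 1.31, 0.712 and 1.13 CPM in RPT and 16.4, 12.95 and 15.4 CPM in RPTi, 14.1-fold higher (log2 fold change 3.81, SE 0.20, adjusted p = 1.25e-08). The protease inhibitor Wfdc1 read 2.30, 2.26 and 1.65 CPM and 28.9, 31.4 and 25.4 CPM (3.78, SE 0.13), and the cell adhesion gene Cntn2 read 2.46, 3.003 and 2.35 CPM and 36.4, 29.3 and 37.9 CPM (3.73, SE 0.13). The RPTi libraries were above every RPT library and every RP library for all 3 genes. Next in size were Myom2 (3.15), a protein of the sarcomere, and Casq2 (3.05), a calcium-binding protein of the sarcoplasmic reticulum. The sphingomyelinase Smpd3 rose 7.77-fold from 8.24, 7.99 and 7.47 CPM to 66.4, 56.0 and 61.8 CPM. The joint-forming growth factor Gdf5 rose 7.02-fold, from 5.96, 6.41 and 4.79 CPM to 38.8, 39.1 and 42.6 CPM, and the RP libraries stood between, at 18.0, 18.3 and 17.9 CPM.

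**Figure D2:**
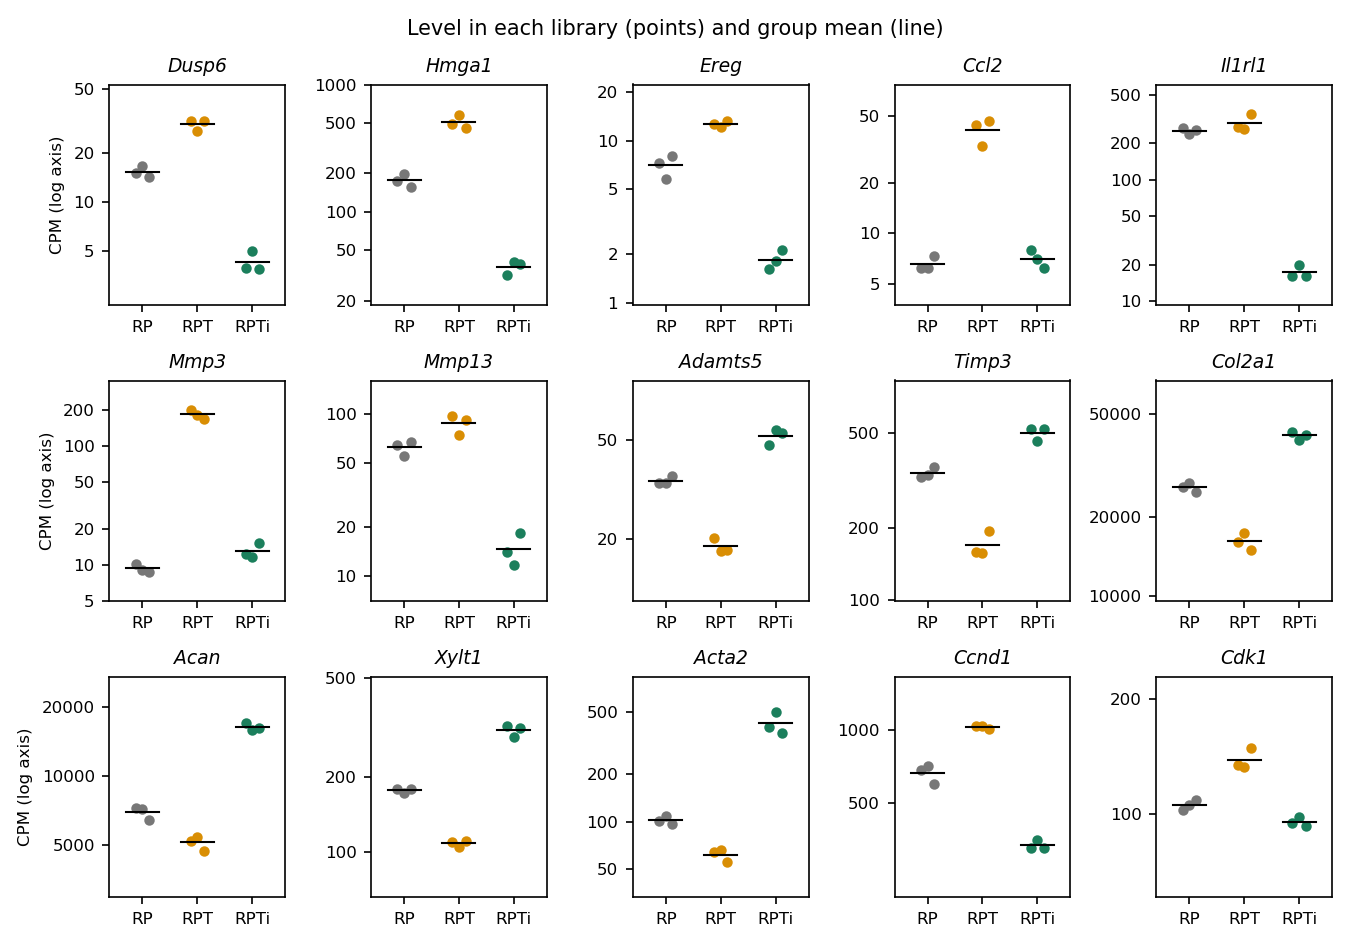
TMM-scaled level (CPM, log axis) of 15 genes in each library (points; 3 per group) with the group mean (line) in rat plasma (RP), plasma with thrombin (RPT) and plasma with thrombin and inhibitor (RPTi). RPT and RPTi do not overlap in any panel; for Ccl2 and Mmp3 the RPTi libraries come near RP, while for Hmga1, Il1rl1, Acan and Acta2 they lie beyond RP on the side away from RPT.

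The protease-activated receptors did not move as one. F2r, the main thrombin receptor of many cells (PAR1), rose slightly, from 46.7, 43.2 and 49.7 CPM in RPT to 62.0, 71.4 and 64.7 CPM in RPTi (0.50, SE 0.08, adjusted p = 0.000175). F2rl1, the receptor PAR2 that trypsin-like proteases cut, fell 2.48-fold, from 15.9, 14.8 and 12.3 CPM to 5.15, 6.43 and 5.81 CPM, and the RP libraries were low at 7.19, 7.80 and 7.13 CPM. The remaining receptors of this family were scarce. F2rl2 (PAR3) read 0.601, 0.65 and 1.19 CPM in RPT and 0.612, 0.355 and 0.223 CPM in RPTi and did not pass (adjusted p = 0.0625). However, F2rl2 passed with a fall when RPTi replicate 1 was left out (adjusted p = 0.0243). It also passed with a fall by edgeR with library totals (adjusted p = 0.045) and by limma on log2(FPKM + 1) (adjusted p = 0.0339). F2rl3 (PAR4) had 1, 2 and 1 counts in RPT and 0, 4 and 2 in RPTi and was not tested.

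The kinases between receptor and nucleus changed little. Of 23 tested members from RAS to ERK, 5 rose and 5 fell, shares near the background, and no change reached 1 on the log2 scale (range -0.74 to 0.72). Without RPT replicate 1, RPTi replicate 1 or RPTi replicate 2, 3 fell. Mapk3 (ERK1) read 179, 188 and 159 CPM in RPT and 171, 184 and 160.4 CPM in RPTi, and its 95% interval ran from -0.19 to 0.14. Of the MEK genes, Map2k1 fell 1.29-fold and Map2k2 was at 0.24 (SE 0.11, adjusted p = 0.11), and passed with a rise once RPT replicate 2 was left out (adjusted p = 0.00568). The RAF genes Araf and Braf rose by 1.24-fold and 1.21-fold. Braf was a narrow call and did not pass when RPT replicate 2, RPT replicate 3, RPTi replicate 1 or RPTi replicate 2 was left out. Nor did Braf pass with DESeq2, limma, library totals, no filter or only the 6 libraries (adjusted p = 0.0525 to 0.146). The levels of these RNAs say nothing of the phosphorylation of the kinases.

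The list of ERK feedback inhibitors was lower by far more. It holds phosphatases, Sprouty and Spred proteins and other inhibitors, and not every member is induced by ERK or acts on ERK itself. Of 21 tested, 14 fell (66.7%, against 21.1% of all genes) and 2 rose, with a median log2 fold change of -1.05. Dusp6, the cytoplasmic phosphatase that switches off ERK, was at 31.7, 27.5 and 31.9 CPM in RPT and 3.92, 5.04 and 3.85 CPM in RPTi, 7.13-fold lower (-2.83, SE 0.12, adjusted p = 2.59e-09). Dusp5, a nuclear ERK phosphatase, went from 22.4, 19.5 and 22.7 CPM to 3.39, 3.65 and 3.32 CPM. For both genes RPTi lay below RPT and below RP without overlap. Spry2, a Sprouty protein that restrains receptor signalling, fell 4.80-fold, from 51.5, 51.1 and 60.6 CPM to 10.9, 13.3 and 9.85 CPM, and Spry4 fell 4.92-fold. The Spred proteins, relatives of Sprouty, all fell: Spred1 by 1.83-fold, Spred2 by 2.604-fold and Spred3 by 3.70-fold. Errfi1, which shuts down EGF receptors, fell 2.99-fold. The exceptions were Dusp8, a phosphatase that acts on JNK and p38 rather than ERK, which rose from 14.3, 12.4 and 11.6 CPM to 35.6, 34.2 and 35.4 CPM (1.45, SE 0.09), and the broad phosphatase Dusp1, which rose 1.21-fold.

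Transcription factors of the AP-1, EGR and ETS families followed in part. Of 40 tested, 21 fell (52.5%) and 4 rose, and the median was -0.40. Fosl1 (FRA1), the AP-1 subunit most tied to sustained ERK activity, dropped from 62.9, 63.7 and 61.4 CPM to 5.15, 6.298 and 4.27 CPM (-3.59, SE 0.12, adjusted p = 4.9e-10). Other AP-1 subunits moved less or not in the same way: Jun fell 1.88-fold and Junb 1.75-fold, Fos and Fosl2 did not pass (0.49, adjusted p = 0.152; -0.01, adjusted p = 0.945), and Jund rose 1.66-fold. Without RPT replicate 3, Fos passed with a rise (0.89, adjusted p = 0.00637). The PEA3 group of ETS factors fell together, with Etv1 going from 19.0, 19.3 and 21.4 CPM to 3.51, 3.52 and 2.90 CPM, Etv4 falling 8.24-fold and Etv5 3.50-fold. The RP libraries held 21.7, 20.3 and 22.3 CPM of Etv1, as much as RPT, so that its low level was seen in RPTi alone among the 3 groups. Egr1, the immediate early zinc finger factor, was at 89.8, 99.2 and 134 CPM in RPT and at 20.6, 14.2 and 13.04 CPM in RPTi (-2.76, SE 0.17). The chromatin protein Hmga2 fell 6.59-fold, Phlda1, an early response gene, 7.14-fold, and Myc 1.43-fold. Atf3, a stress-induced factor, went the other way, from 6.54, 5.97 and 6.16 CPM to 17.3, 18.0 and 18.5 CPM (1.53, SE 0.09).

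Several ligands of the EGF receptor, some of them known targets of ERK, fell too. Of 16 tested members of this system 8 fell and 1 rose. Epiregulin, Ereg, read 12.6, 12.1 and 13.3 CPM in RPT and 1.61, 1.81 and 2.12 CPM in RPTi, 6.85-fold lower. Amphiregulin, Areg, fell 5.68-fold to 1.59, 2.07 and 1.14 CPM, Hbegf fell 2.21-fold from 100.1, 96.5 and 112 CPM, Tgfa fell 2.19-fold and Epgn, epigen, 3.24-fold. The scarce ligands Egf and Btc did not pass (0.03, adjusted p = 0.967; -0.47, adjusted p = 0.366). The receptor Egfr fell 1.38-fold, a smaller change than that of any of the 5 fallen ligands named above. Lrig3, a membrane protein related to the EGF receptor antagonist Lrig1, was the member that rose (1.47-fold).

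Most of the tested chemokines, the cytokines that attract leukocytes, fell with the inhibitor. Of 31 listed, 14 had enough counts to be tested. Of these, 8 fell (57.1%) and 1 rose, and the median of -1.34 was the lowest among the lists in the plot of list shares. Members with enough counts in RPT alone, such as Ccl20, could only be called as falls. Their presence weighs on this count and on the rank of the median. Ccl2, which draws monocytes, stood at 44.3, 33.2 and 46.3 CPM in RPT and 7.99, 7.07 and 6.20 CPM in RPTi (-2.54, SE 0.14, adjusted p = 1.88e-08), while the RP libraries held 6.22, 6.25 and 7.32 CPM, which overlaps RPTi. The neutrophil chemokine Cxcl1 went from 27.7, 24.1 and 32.8 CPM to 6.29, 4.68 and 5.81 CPM, and Cxcl3 from 5.70, 5.29 and 6.34 CPM to 0.807, 0.646 and 0.698 CPM. Ccl20, scarce in every group, read 1.31, 1.11 and 1.16 CPM in RPT and 0.0556, 0.0646 and 0.112 CPM in RPTi. Cxcl12, the stromal chemokine that holds progenitor cells in their niche, rose 2.00-fold, from 2.46, 3.03 and 3.51 CPM to 5.59, 6.01 and 6.37 CPM, to the level of RP (6.17, 6.11 and 6.34 CPM). RPT and RPTi were separate for each of these genes, with only Cxcl12 higher in RPTi.

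Receptors of the interleukin 1 family fell along with Il1rl1. Of 17 tested members of the IL-1 and IL-33 system, 7 fell and 2 rose (1 rose without RPT replicate 1, RPT replicate 2, RPTi replicate 1 or RPTi replicate 3). The IL-1 receptor Il1r1 went from 65.7, 59.7 and 72.3 CPM to 26.0, 27.8 and 27.9 CPM (-1.28, SE 0.09), its partner Il1rap fell 2.78-fold, and the IL-18 receptor chain Il18rap fell 5.04-fold from 4.39, 3.87 and 4.94 CPM. For Il1r1 the RP libraries, at 59.2, 54.7 and 67.7 CPM, were close to RPT, and RPTi lay below both. The ligands were scarce: Il33 did not pass (adjusted p = 0.876), and Il1b, too low to be tested, had 6, 9 and 3 counts in RPT and 0 in each RPTi library.

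The interleukin 6 family and its STAT factors showed no common direction. Of 37 tested, 12 rose and 10 fell, with a median near 0. Il6 itself was scarce, at 0.758, 0.712 and 0.823 CPM in RPT and 0.501, 0.161 and 0.307 CPM in RPTi. It fell 2.32-fold (SE 0.43 on the log2 scale, adjusted p = 0.0378). The call was lost when any 1 of the 6 libraries other than RPTi replicate 1 was left out (adjusted p = 0.0642 to 0.135). With all libraries, Il6 did not pass by the DESeq2 Wald test (adjusted p = 0.0798) or by edgeR with no filter (adjusted p = 0.0508). Stat3, the transcription factor named in the series title, read 255, 257 and 261 CPM in RPT and 248, 254 and 261 CPM in RPTi, with a 95% interval of -0.12 to 0.09 on the log2 scale. Its feedback target Socs3 did not pass either (-0.05, SE 0.08, adjusted p = 0.633). The cytokine Lif fell 1.85-fold. The receptor chain Cntfr rose 3.87-fold, from 1.59, 1.45 and 1.77 CPM to 6.98, 6.14 and 5.56 CPM, and Stat2, which serves interferon signals, rose 1.67-fold. Socs2, an inhibitor of growth hormone signalling, rose from 0.471, 0.495 and 0.366 CPM to 2.37, 1.84 and 2.82 CPM, and Socs5 fell 2.62-fold.

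Chi3l1, Lcn2 and C3, of the acute phase and complement list, fell to levels that were still above those in plasma alone. Of 22 tested, 9 fell and 6 rose (5 fell without RPT replicate 1 or without RPTi replicate 2). Chi3l1, a glycoprotein of inflamed cartilage, was at 183, 148 and 128 CPM in RPT, 31.1, 26.2 and 32.6 CPM in RPTi and 5.74, 5.51 and 5.12 CPM in RP. Lipocalin 2, Lcn2, a carrier of siderophores, was at 214, 195 and 174 CPM, 64.6, 64.6 and 78.5 CPM and 12.3, 13.1 and 11.5 CPM in the same order. C3, the central complement protein, was at 32.4, 27.2 and 27.4 CPM in RPT and 19.1, 15.5 and 21.9 CPM in RPTi, a 1.54-fold fall (-0.62, SE 0.12, adjusted p = 0.00124), and below 0.5 CPM in each RP library. In these genes the 3 groups did not overlap, and RPTi lay between the others. Ceruloplasmin, Cp, a copper-binding ferroxidase, rose 1.71-fold, from 29.7, 21.4 and 23.1 CPM to 44.6, 34.4 and 48.3 CPM.

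In the prostaglandin pathway, enzymes on the way to prostaglandin E fell while several receptors rose. The list held 8 risen and 8 fallen genes of 22 tested. Ptgs2 (COX-2), the inducible cyclooxygenase, went from 50.7, 48.1 and 53.3 CPM to 15.7, 14.5 and 14.8 CPM (-1.76, SE 0.09, adjusted p = 9.06e-09), below the 22.7, 24.1 and 27.8 CPM of RP. Ptgs1 (COX-1) fell 2.29-fold, the prostaglandin E synthase Ptges fell 3.02-fold and the secreted phospholipase Pla2g2a 2.59-fold. Ptgds, which makes prostaglandin D, rose 2.68-fold, from 47.4, 47.0 and 42.1 CPM to 136, 108 and 122 CPM. Among receptors, Ptger2 fell from 4.47, 3.96 and 4.67 CPM to 0.835, 0.743 and 1.28 CPM, whereas Ptgfr, the receptor of prostaglandin F, rose from 2.01, 1.76 and 1.34 CPM to 7.10, 6.27 and 8.15 CPM and Ptger3 from 0.0784, 0.186 and 0.0305 CPM to 0.863, 1.16 and 0.893 CPM. No library of one group overlapped the other for these genes.

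The NF-kB list, which holds receptors, subunits and targets, had 15 fallen and 4 risen members of 37 tested. The innate immune receptor Tlr2 went from 11.8, 10.1 and 13.4 CPM to 1.78, 1.91 and 1.84 CPM (-2.68, SE 0.18), the TNF receptor Tnfrsf1b fell 2.20-fold and the subunit Nfkb1 1.23-fold. The adhesion molecule Icam1, a common NF-kB target, rose 1.76-fold, from 124, 121 and 112 CPM to 209, 203 and 217 CPM. Tnfrsf11b, osteoprotegerin, a decoy receptor that restrains osteoclasts, rose 3.27-fold, and Tril, a co-receptor of Toll-like receptors, rose 4.38-fold.

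Proteases of the matrix split by family. Of 47 tested genes in the list of metalloproteinases and inhibitors, 24 rose and 14 fell. Among 15 matrix metalloproteinases (MMPs), 7 fell and 4 rose, while among 16 ADAMTS proteases, 12 rose and 1 fell, and of 5 inhibitors 4 rose. This subdivision was made after the values had been seen. The promoters of the 4 fallen MMP genes in which the AP-1 sequence TGANTCA was found are shown first, and they were picked for that match. A link to the fallen AP-1 subunits above was not tested. Each line is the RefSeq promoter from 250 bases before to 50 after the start of the gene (build GRCr8, a later build than the one the counts were made on), read 5′ to 3′ on the strand of the gene, with TGANTCA in capitals. These genes of 1 family lie close together, so they are not 4 independent cases. All 4 lie on the plus strand of chromosome 8: Mmp3 at chr8:12925031-12925330, Mmp10 at chr8:12974457-12974756, Mmp12 at chr8:12866402-12866701 and Mmp13 at chr8:12782579-12782878.
Mmp3: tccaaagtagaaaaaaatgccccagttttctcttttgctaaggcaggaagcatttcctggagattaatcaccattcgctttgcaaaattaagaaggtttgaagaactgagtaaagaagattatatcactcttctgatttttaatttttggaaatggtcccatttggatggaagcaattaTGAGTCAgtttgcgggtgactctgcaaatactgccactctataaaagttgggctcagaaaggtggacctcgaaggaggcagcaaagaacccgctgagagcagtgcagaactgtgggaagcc
Mmp10: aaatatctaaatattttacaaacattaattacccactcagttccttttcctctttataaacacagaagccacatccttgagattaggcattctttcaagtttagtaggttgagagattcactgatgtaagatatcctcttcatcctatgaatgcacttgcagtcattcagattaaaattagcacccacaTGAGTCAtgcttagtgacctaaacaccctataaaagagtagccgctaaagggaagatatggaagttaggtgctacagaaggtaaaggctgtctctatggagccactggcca
Mmp12: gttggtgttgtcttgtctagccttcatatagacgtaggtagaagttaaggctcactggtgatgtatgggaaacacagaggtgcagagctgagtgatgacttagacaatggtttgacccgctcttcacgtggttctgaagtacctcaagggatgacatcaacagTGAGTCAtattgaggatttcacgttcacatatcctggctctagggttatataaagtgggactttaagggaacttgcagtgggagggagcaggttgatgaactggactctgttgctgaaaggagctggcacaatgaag
Mmp13: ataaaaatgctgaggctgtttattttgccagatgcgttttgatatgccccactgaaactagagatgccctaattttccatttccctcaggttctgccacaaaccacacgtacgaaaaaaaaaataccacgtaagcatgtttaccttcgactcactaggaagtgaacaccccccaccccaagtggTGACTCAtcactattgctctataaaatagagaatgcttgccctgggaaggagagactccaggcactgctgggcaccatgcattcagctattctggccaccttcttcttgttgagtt
The sequence starts 71, 61, 87 and 66 bases before the start of Mmp3, Mmp10, Mmp12 and Mmp13. Searched on both strands, TGANTCA occurs in 7.33% of 27457 promoters in the table and in 4.98% of those of tested genes. In this list it was found in 4 of 10 fallen genes with a promoter, in 1 of 20 risen genes (Adam19) and in 0 of 6 that did not pass. The call of Adam19 was lost when any 1 of the 6 libraries other than RPT replicate 2 was left out, and also with DESeq2 or limma. Over all tested genes it was found in 135 of 2181 fallen and 105 of 2114 risen genes. Lists in which most called genes rose also held it, with 3 of 22 promoters of cartilage matrix genes (13.6%) and 4 of 38 of contractile genes (10.5%). In lists with mostly falls it was found in 5 of 64 promoters of mitosis genes, 2 of 59 of replication genes and 1 of 20 of ERK feedback inhibitors. The AP-1, EGR and ETS list had it in 0 of 31. Thus the motif did not follow the falls across lists. A match of letters is a description, not a binding site or a cause.

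The stromelysin Mmp3, which cleaves proteoglycans and activates collagenases, stood at 200.02, 179.7 and 168 CPM in RPT and 12.4, 11.7 and 15.2 CPM in RPTi, 13.9-fold lower (log2 fold change -3.80, SE 0.11, adjusted p = 3.51e-10). Mmp13 (ENSRNOG00000008478), the main collagenase of rat cartilage, went from 96.6, 73.8 and 92.0 CPM to 14.0, 11.6 and 18.5 CPM (-2.57, SE 0.15, adjusted p = 4.57e-08). These genes differed in their relation to plasma: the RP libraries held 10.3, 9.20 and 8.74 CPM of Mmp3, just under RPTi, and 64.2, 54.9 and 67.4 CPM of Mmp13, well above RPTi. Mmp10, stromelysin 2, fell 13.1-fold to 0.501, 0.84 and 0.698 CPM, the gelatinase Mmp9 fell 2.89-fold from 6.69, 7.34 and 5.58 CPM, and the elastase Mmp12, with 0.549, 0.619 and 0.518 CPM in RPT, fell 4.72-fold. The abundant Mmp14, a membrane collagenase, and Mmp2, the gelatinase it activates, did not pass (0.11, adjusted p = 0.0933; 0.11, adjusted p = 0.172), although Mmp14 passed with a rise when RPT replicate 2 was left out (adjusted p = 0.047). Mmp15, another membrane-bound member, rose 6.34-fold.

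The aggrecanases Adamts5 and Adamts4, ADAMTS proteases that cut aggrecan, rose, unlike Mmp13. Adamts5 rose from 20.3, 17.9 and 18.1 CPM to 47.6, 54.6 and 53.5 CPM (1.47, SE 0.08, adjusted p = 2.1e-08), above the 33.6, 33.6 and 35.9 CPM of RP. Adamts4 rose 1.97-fold, from 5.73, 6.69 and 5.24 CPM to 12.2, 11.2 and 11.3 CPM, about the range of RP (9.86, 12.7 and 9.32 CPM). Adamts12 and Adamts15, which also act on cartilage matrix proteins, rose 4.17-fold and 3.98-fold, and the procollagen-processing Adamts14 rose 7.08-fold. Adamts8 was the ADAMTS protease that fell, from 3.61, 3.56 and 4.24 CPM to 0.501, 0.517 and 0.112 CPM. The inhibitors differed too: Timp1 fell 1.94-fold, from 310.0, 327 and 324 CPM to 166, 169.7 and 159 CPM, whereas Timp3, which blocks aggrecanases, rose 2.94-fold, from 158, 157 and 194 CPM to 518, 462 and 517 CPM. The serine protease Htra1, abundant in cartilage, fell 2.23-fold and the sheddase Adam12 3.15-fold. In the plasminogen system, 10 of 20 tested genes fell and 4 rose. Serpine2, an inhibitor of thrombin and plasminogen activators, fell 2.76-fold, from 1556, 1543 and 1737 CPM to 567, 607 and 577 CPM, and the activator Plau and its receptor Plaur fell 1.82-fold and 1.70-fold.

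**Figure D3:**
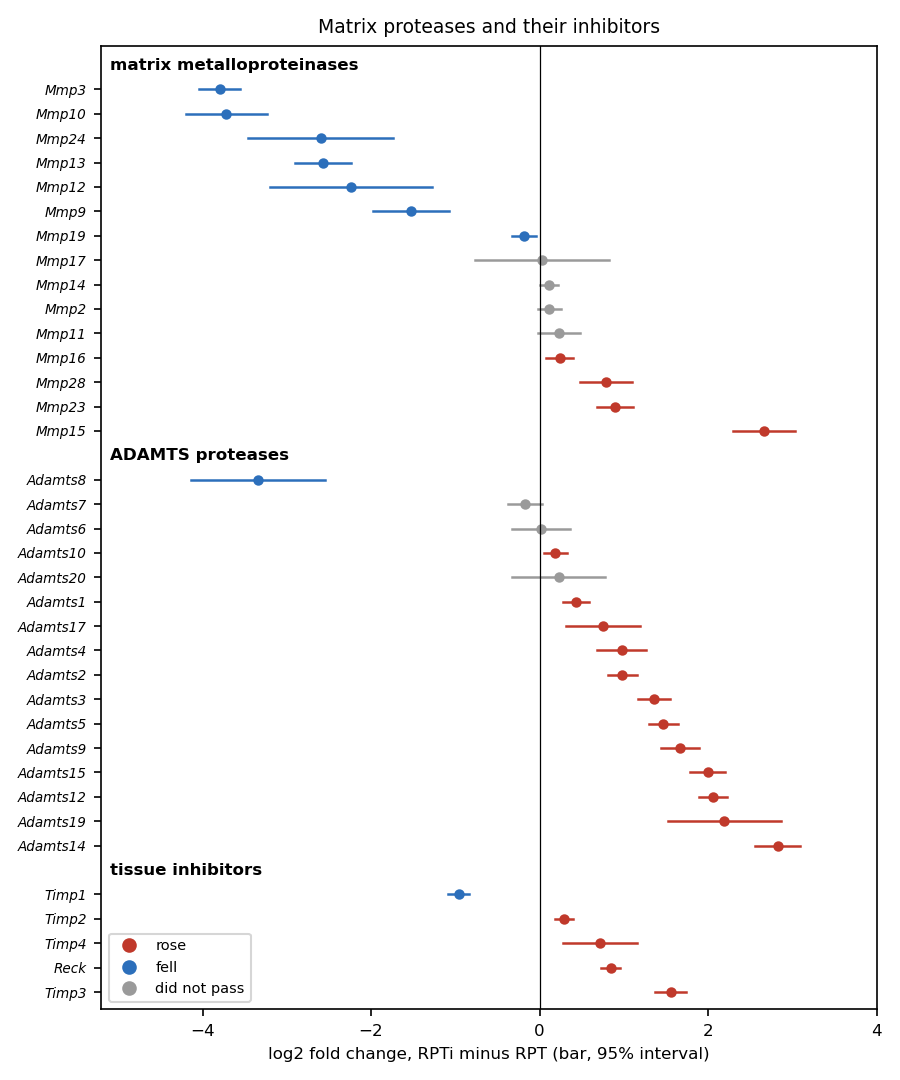
Log2 fold change in RPTi against RPT (points) with 95% interval (bars) for the tested matrix metalloproteinases, ADAMTS proteases and tissue inhibitors, in red where they rose, in blue where they fell and in grey where they did not pass. Mmp3 and Mmp10 lie near -3.8 and -3.7 at the left, and 12 of 16 ADAMTS proteases are red.

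Genes of the cartilage matrix rose nearly without exception. Of 32 tested, 31 rose (96.9%, against 20.4% of all genes), 23 of them by at least 1 on the log2 scale, and the median was 1.40. Col2a1 (ENSRNOG00000058560), the fibril collagen of cartilage and the called gene with the highest mean FPKM over the 6 libraries, read 16171, 17359 and 15064 CPM in RPT and 42356, 39757 and 41478 CPM in RPTi (1.35, SE 0.05, adjusted p = 1.92e-09). Acan, the aggrecan core protein, rose 3.18-fold, from 5210.2, 5426 and 4706 CPM to 16940.1, 15747 and 16093 CPM. In both genes every RPTi library exceeded every RP library (26188, 27012 and 24991 CPM of Col2a1 and 7234, 7128 and 6421 CPM of Acan). The rest of the proteoglycan aggregate and the fibril surface moved with them: Hapln1, the link protein that ties aggrecan to hyaluronan, rose 3.15-fold, the matrilin Matn3 4.03-fold, Col9a2 2.68-fold and Comp 2.74-fold. Col11a1, a collagen XI chain of the cartilage fibril, rose less (1.74-fold). Col11a2, another chain of collagen XI, rose by 1.37 on the log2 scale (SE 0.07, adjusted p = 7.27e-09). Cilp, a protein of the middle cartilage zone, rose 5.60-fold, from 8.47, 6.59 and 7.04 CPM to 41.7, 38.9 and 43.6 CPM, and Cnmd, chondromodulin, which keeps vessels out of cartilage, rose 3.73-fold. The single member that fell was Prg4, lubricin, the lubricant of the joint surface: it read 261, 228 and 231 CPM in RPT, 48.9, 46.8 and 49.4 CPM in RPTi and 17.7, 15.6 and 18.2 CPM in RP.

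Collagens that are not specific to cartilage rose as well, in 19 of 28 cases, with 5 falls. Col1a1, the collagen of bone and dedifferentiated chondrocytes, went from 6381, 7084 and 6245 CPM to 12117, 13574 and 12013 CPM (1.91-fold), which overlaps RP (12331, 12546 and 11241 CPM). The fibril-associated Col12a1 and Col14a1 rose 2.51-fold and 3.13-fold. Those that fell included collagens of anchoring fibrils and basement membranes: Col7a1 fell 4.43-fold, Col8a1 1.91-fold and Col18a1 1.75-fold. The machinery that folds and joins collagen rose too, with 26 of 33 tested genes risen and 2 fallen (Loxl3 and P4ha3). Serpinh1, the collagen chaperone HSP47, went from 2590.1, 2807 and 2669 CPM to 5259, 5209.6 and 5116 CPM (0.95, SE 0.05, adjusted p = 1.31e-08). The collagen glycosyltransferase Colgalt2 rose 3.89-fold and Tgm2, a cross-linking transglutaminase, rose 5.73-fold from 2.98, 2.07 and 2.26 CPM. Loxl3, a lysyl oxidase, fell 1.42-fold while Lox rose 1.41-fold.

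Among enzymes that build the sugar chains of proteoglycans, more rose than fell. Of 51 tested, 27 rose and 6 fell. Xylt1, which attaches the first xylose to the core protein, went from 111, 105 and 111 CPM to 319.8, 289 and 316 CPM (1.50, SE 0.06, adjusted p = 1.61e-09). Of 6 genes of the linkage region 4 rose and 2 did not pass, and of 6 that extend chondroitin chains 1 did not pass and 5 rose, among them Csgalnact1 (1.99-fold) and Chsy1 (1.78-fold). Of 7 chondroitin sulfotransferases 3 rose, Chst11 by 2.03-fold, and 4 did not pass. In the supply of sulfate and sugar 5 of 8 rose and 1 fell: the sulfate transporter Slc26a2, mutated in skeletal dysplasias, went from 61.6, 53.5 and 65.4 CPM to 146, 121 and 137 CPM, Papss2, which makes the sulfate donor, rose 1.84-fold, and the nucleotide sugar transporter Slc35d1 2.25-fold. Uxs1, which makes UDP-xylose, fell 1.37-fold. The heparan sulfate branch was mixed, with 8 risen and 3 fallen of 17: Extl1 rose 3.88-fold, Extl3 fell 2.22-fold, from 267, 263 and 246 CPM to 113, 123 and 112 CPM, and Ndst3 fell as described above. The grouping of these enzymes by step was made after their values had been seen.

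**Figure D4:**
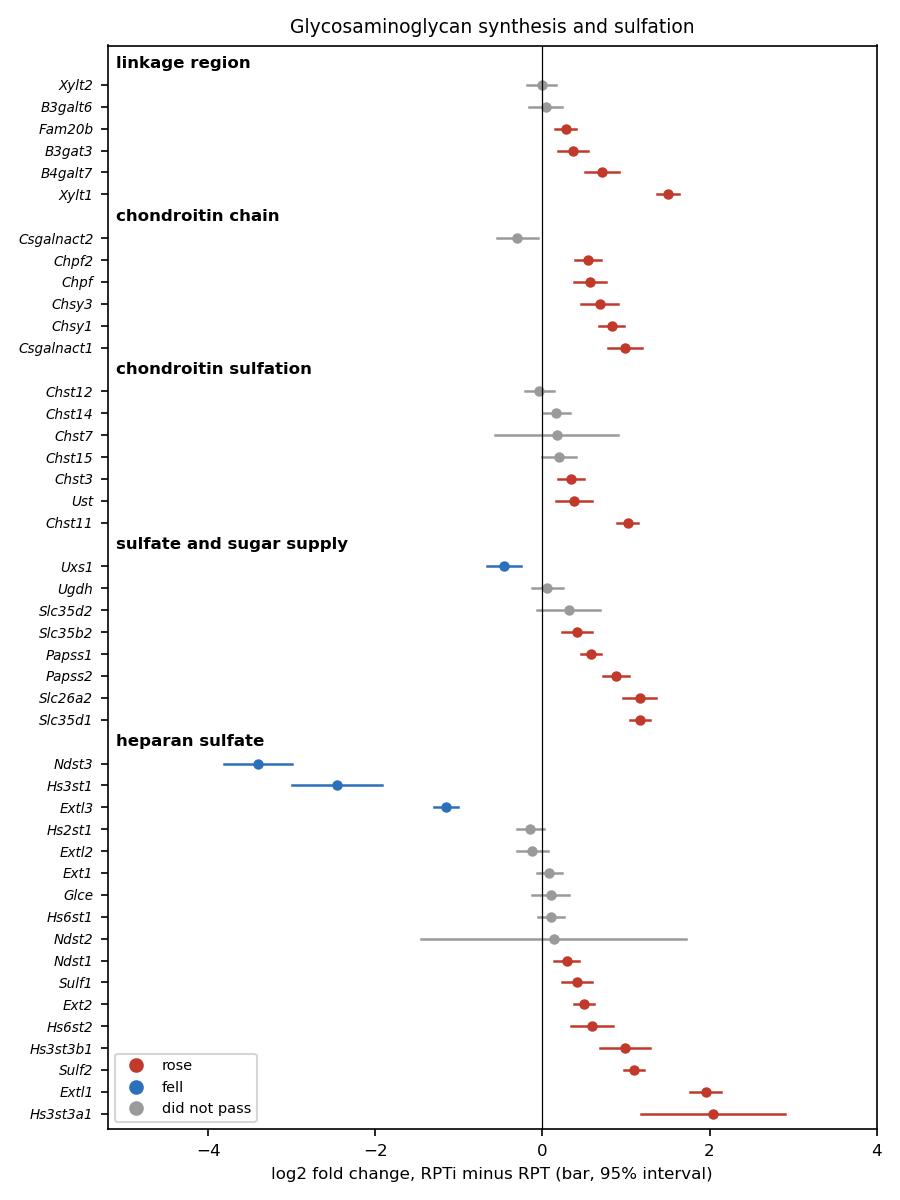
Log2 fold change in RPTi against RPT (points) with 95% interval (bars) for genes of glycosaminoglycan synthesis, grouped by step and coloured by call (red, rose; blue, fell; grey, did not pass). In the linkage, chain and chondroitin sulfation steps no gene fell, and Xylt1 is highest among them at 1.50; the falls of Ndst3, Hs3st1 and Extl3 are in the heparan sulfate branch.

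Small leucine-rich proteoglycans, which coat collagen fibrils, were mixed: 5 of 13 tested rose and 3 fell. Fibromodulin, Fmod, rose 2.98-fold, from 678, 702 and 635 CPM to 2034, 1882 and 2086 CPM, and epiphycan, Epyc, 3.18-fold. Decorin, Dcn, fell 1.63-fold, from 30.9, 24.98 and 37.0 CPM to 19.8, 14.7 and 22.3 CPM, and Lum, lumican, did not pass (adjusted p = 0.9). The chondrocyte marker Chad, which is in this list and not in that of the cartilage matrix, fell too (-0.74, SE 0.17, adjusted p = 0.00446). For hyaluronan, 5 of 15 genes rose and 5 fell. The receptor Cd44 fell 3.24-fold, from 391, 374 and 432 CPM to 115, 136 and 117 CPM, and the synthase Has2 1.60-fold. Of the genes tied to hyaluronan breakdown, Cemip and Hyal1 rose 2.04-fold and 2.05-fold, Cemip2 fell 1.68-fold and Hyal2 did not pass (adjusted p = 0.715).

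Among adhesive glycoproteins and elastic fibre proteins, 31 of 46 tested rose and 7 fell. Fn1, fibronectin, the adhesive protein that gains in dedifferentiated chondrocytes, fell 1.46-fold, from 51941, 52545 and 51552 CPM to 35061, 36602 and 35233 CPM (-0.55, SE 0.04, adjusted p = 1.07e-07). The fibrillin Fbn2, a protein of elastic fibres, went from 85.2, 83.4 and 90.1 CPM to 275, 274 and 275 CPM, Mfap2 rose 5.92-fold and Eln, elastin, 2.12-fold, while the fibulin Fbln2 fell 1.75-fold and Ltbp1, which anchors latent TGF-beta to fibrillin fibres, 2.06-fold. The basement membrane protein Nid2 rose 2.33-fold and Fras1, an extracellular matrix protein of epithelial borders, 4.93-fold. The collagen-binding integrins split, since the chondrocyte integrin Itga10 rose 2.65-fold and Itga11 2.63-fold, while Itga2 fell from 4.73, 5.05 and 3.96 CPM to 0.668, 0.484 and 0.81 CPM. The laminin-binding Itga3 fell 6.26-fold, from 372, 374 and 321 CPM to 50.4, 68.7 and 51.6 CPM. Of 42 tested integrins, syndecans and focal adhesion genes, 14 rose and 11 fell.

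The transcription factors of the skeleton had a median log2 fold change of 0.08, against 1.40 for the cartilage matrix, and 18 of 53 rose and 12 fell. Sox9, the master factor of chondrocytes, went from 93.3, 99.5 and 77.1 CPM to 122, 138 and 141 CPM, 1.49-fold higher (0.57, SE 0.09, adjusted p = 0.000357), and overlapped the RP range (154, 145 and 134 CPM). Its partner Sox6 rose 1.64-fold and Sox5 did not pass (adjusted p = 0.147), while the related Sox8 rose 3.85-fold, from 7.37, 6.56 and 7.10 CPM to 25.2, 29.0 and 27.1 CPM. Runx2, which drives hypertrophy, fell 1.55-fold, and the mesenchymal factors Prrx1 and Twist1 fell 1.88-fold and 1.81-fold. Genes of hypertrophy and mineralization did not share a direction, with 11 risen and 9 fallen of 26. Alkaline phosphatase, Alpl, rose 4.46-fold, from 5.20, 6.501 and 4.85 CPM to 24.4, 26.0 and 23.3 CPM, and the growth plate signal Ihh, which was scarce, went from 0.654, 0.464 and 0.762 CPM to 2.25, 3.13 and 3.24 CPM. Enpp1, Ankh and Slc20a1, which handle pyrophosphate and phosphate, fell 2.63-fold, 2.25-fold and 2.43-fold. Col10a1, the collagen of hypertrophic chondrocytes, had at most 0.558 CPM in these 6 libraries and did not pass (adjusted p = 0.0732).

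Several antagonists and receptors of the signals that steer cartilage growth changed. In the BMP and TGF-beta list, 26 of 69 rose and 21 fell. The BMP antagonists Chrd and Nog rose 3.21-fold and 3.11-fold, from 12.6, 14.9 and 14.0 CPM and 8.84, 8.98 and 10.8 CPM to 43.9, 45.2 and 43.7 CPM and 29.5, 30.9 and 28.6 CPM, while the activin antagonist Fst fell 4.12-fold and the BMP antagonist Grem1 1.99-fold. The BMP target Id1 fell 1.71-fold and Smad7, an inhibitor induced by TGF-beta, 2.03-fold. The ligands parted, as Tgfb3 rose 2.72-fold, from 178, 182 and 182 CPM to 472, 529 and 469 CPM, and Tgfb1 fell 1.85-fold. In the Wnt pathway, 19 of 54 rose and 17 fell: the secreted Wnt antagonist Frzb went from 51.8, 51.4 and 50.1 CPM to 185, 165 and 184 CPM (1.80, SE 0.06), and the intracellular antagonists Nkd1 and Nkd2 rose 3.29-fold and 3.42-fold, whereas the Wnt target Axin2 fell 1.73-fold and the nuclear factor Lef1 1.64-fold. Fgfr3, the receptor that limits growth of cartilage, rose 3.36-fold, from 231, 231 and 216 CPM to 745, 787 and 746 CPM, and Fgfr1 fell 1.44-fold. The insulin-like growth factor carriers were opposite: Igfbp5 rose 3.83-fold and Igfbp3 fell 5.08-fold, from 136, 143 and 144 CPM to 25.9, 26.5 and 30.7 CPM.

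Vessel and guidance signals also changed. Of 31 genes of the VEGF, PDGF and KIT systems, 14 fell and 9 rose. Vegfa, the main angiogenic factor, fell 1.84-fold and the macrophage growth factor Csf1 1.87-fold. The receptor tyrosine kinase Kit went from 4.63, 3.65 and 3.69 CPM to 18.4, 20.7 and 18.9 CPM (2.27, SE 0.11), and Nrp1, a co-receptor of VEGF and semaphorins, rose 4.05-fold, while Met, the hepatocyte growth factor receptor, fell 2.55-fold. Of 57 guidance genes (semaphorins, ephrins, netrins and Slit proteins, and their receptors), 26 rose and 7 fell. The semaphorin receptor Plxnb1 rose 5.06-fold, from 25.9, 27.4 and 22.1 CPM to 133, 123 and 126 CPM, and the ephrin receptor Epha2 fell 2.84-fold. In the Notch pathway, 11 of 23 rose and 3 fell (7 rose without RPT replicate 1, and 5 fell without RPT replicate 2). Notch3 rose 2.16-fold, and Rbpj, the DNA-binding partner of Notch, fell 2.42-fold.

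Contractile genes of smooth muscle type rose with the inhibitor, 25 of 46 tested against 4 falls. Acta2, smooth muscle actin, stood at 63.6, 66.1 and 55.04 CPM in RPT and 399.7, 504 and 370.1 CPM in RPTi (2.78, SE 0.11, adjusted p = 1.92e-09), and the RP libraries, at 100.3, 109 and 96.4 CPM, were nearer to RPT. Mylk, myosin light chain kinase, went from 4.52, 4.30 and 4.73 CPM to 21.7, 19.1 and 21.3 CPM, level with RP (20.6, 20.9 and 22.0 CPM). The actin-binding Lmod1 and Tagln rose 3.98-fold and 1.99-fold, and skeletal actin, Acta1, rose from 0.131, 0.341 and 0.061 CPM to 3.03, 4.10 and 2.37 CPM. The 4 that fell, Tpm3, Tpm4, Tagln2 and Vim, are broadly expressed; the cytoplasmic tropomyosin Tpm3 fell 1.43-fold. Tpm4 was a narrow call, lost without RPT replicate 1, RPT replicate 3 or any 1 of the RPTi libraries, and with only the 6 libraries (adjusted p = 0.0505 to 0.134). Among markers of skeletal muscle, Myog had at most 2 counts and Ckm 0 in the 6 libraries, and Myod1 had 21, 17 and 8 counts in RPT and 3, 3 and 5 in RPTi. The troponin Tnnt3, also a marker of skeletal muscle, rose 3.51-fold, from 1.15, 0.867 and 0.976 CPM to 4.09, 3.10 and 3.38 CPM, and skeletal actin, Acta1, rose too. The part of such cells in the result was not tested. Among 61 ion channels and calcium handling genes, 16 rose and 13 fell. Trpv4, a mechanosensitive calcium channel of chondrocytes, rose 2.30-fold, from 109, 117 and 96.7 CPM to 249.8, 243 and 251 CPM. Another mechanosensitive channel, Piezo1, did not pass (adjusted p = 0.283), and Piezo2 rose 1.78-fold.

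Genes of cell division fell, most of them by small amounts. Ccnd1, the cyclin D1 that links growth factor signals to the cell cycle, had the largest fall of the G1 list: it read 1038, 1033 and 1006 CPM in RPT and 328, 355 and 328 CPM in RPTi (-1.60, SE 0.07, adjusted p = 2.62e-09), below the 682, 709 and 597 CPM of RP. Of 32 G1 cyclins and inhibitors, 12 fell and 6 rose (7 fell without RPTi replicate 1); Ccnd3 rose 1.43-fold and the CDK inhibitor Cdkn1a 1.23-fold, and Cdkn2b fell 2.14-fold. Of 69 genes of DNA replication and nucleotide synthesis, 53 fell (76.8%) and 1 rose, with a median of -0.38, and of 73 genes of mitosis, 60 fell (82.2%) and 0 rose, with a median of -0.50; by edgeR's test none of the latter rose at an unadjusted p under 0.05 either, nor by DESeq2. None of the mitosis genes changed by 1 or more on the log2 scale.

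The helicase subunit Mcm6 and cyclin B1 stand for these lists, and their promoters are shown because they hold motifs of cell cycle genes. Capitals mark TTTGGCGC, a sequence bound by E2F factors, in Mcm6 (chr13:42404303-42404602, minus strand) and CCAAT, the NF-Y box, in Ccnb1 (chr2:33655176-33655475, minus strand), in RefSeq promoters of build GRCr8 with the same window as above.
Mcm6: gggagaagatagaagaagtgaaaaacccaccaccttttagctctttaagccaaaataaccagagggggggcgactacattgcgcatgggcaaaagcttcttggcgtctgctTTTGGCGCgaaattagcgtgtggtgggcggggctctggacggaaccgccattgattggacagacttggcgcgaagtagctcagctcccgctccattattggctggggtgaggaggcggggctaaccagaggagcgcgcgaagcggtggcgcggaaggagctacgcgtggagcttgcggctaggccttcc
Ccnb1: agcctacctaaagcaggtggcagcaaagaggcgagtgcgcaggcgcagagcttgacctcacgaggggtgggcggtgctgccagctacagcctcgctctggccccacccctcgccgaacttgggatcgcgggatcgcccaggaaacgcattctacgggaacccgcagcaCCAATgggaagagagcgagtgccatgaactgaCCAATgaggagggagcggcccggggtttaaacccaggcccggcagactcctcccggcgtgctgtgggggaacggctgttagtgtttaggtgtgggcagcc
TTTGGCGC, searched on both strands, was found in 11 of 59 replication genes with a promoter (18.6%), 10 of which were among the 45 that fell, in 0.908% of the promoters of tested genes and in 0.521% of all promoters. Over all tested genes it was found in 34 of 2181 fallen and 9 of 2114 risen genes. Another E2F sequence, TTTCCCGC, was found in 6 of the 45 fallen replication genes and in 4 of 13 that did not pass, and over all tested genes in 59 of 2181 fallen and 29 of 2114 risen genes. CCAAT was found in 42 of 64 mitosis genes (65.6%) and in 37.7% of all promoters. Within the mitosis list it was found in 32 of 51 fallen genes and in 9 of 12 that did not pass, and over all tested genes in 822 of 2181 fallen and 790 of 2114 risen genes. Mcm6 read 163, 171 and 179.9 CPM in RPT and 122, 116 and 114 CPM in RPTi (1.46-fold lower), and the clamp protein Pcna fell 1.55-fold. Ccnb1 fell 1.54-fold, from 89.1, 85.7 and 96.2 CPM to 56.8, 62.6 and 57.0 CPM, and the mitotic kinase Cdk1 1.45-fold, from 135, 133 and 149 CPM to 95.1, 98.6 and 93.4 CPM. The RP libraries, with 103, 106 and 109 CPM of Cdk1, stood between the groups. The proliferation marker Mki67 was the least steady, at 399, 312 and 198 CPM in RPT and 218, 173 and 214 CPM in RPTi. Its groups overlapped although it passed (adjusted p = 0.0364). Mki67 no longer passed when any 1 of the 6 libraries other than RPT replicate 3 was left out (adjusted p = 0.0653 to 0.185). Nor did it pass by the DESeq2 Wald test (adjusted p = 0.0829) or limma (adjusted p = 0.0627).

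Most genes of ribosome biogenesis fell, while few ribosomal protein genes passed the test. Of 82 biogenesis genes, 51 fell (62.2%) and 1 rose (2 rose without RPT replicate 3), with a median of -0.30. The nucleolar proteins Ncl and Npm1 fell 1.49-fold and 1.46-fold, and Lyar, a nucleolar growth regulator, went from 30.1, 29.9 and 34.2 CPM to 17.8, 15.3 and 17.4 CPM (-0.90, SE 0.09). Of 68 cytosolic ribosomal protein genes, 2 fell (2.94%, against 21.1% of all genes) and 0 rose in edgeR's test and by DESeq2 (1 rose at an unadjusted p under 0.05, and 1 without RPT replicate 2). Their median was -0.03. Those 2 were Rpl23 and Rps3a, lower by 1.23-fold and 1.22-fold. The count of falls depends on the scaling: 16 fell with library totals, and it was 5 without RPT replicate 1 or RPT replicate 2 and 1 without RPTi replicate 2 or RPTi replicate 3. Genes with many processed copies, such as ribosomal protein genes, Npm1, Eno1 and Gapdh, are uncertain where reads could be split between copies. In the mitochondrial respiratory chain 13 of 75 rose and 5 fell, below the background in both directions, although 8 rose and 10 fell with library totals. Leaving out RPT replicate 1, RPT replicate 3, RPTi replicate 1 or RPTi replicate 2 brought the risen count to 5 to 8, and 2 fell without RPT replicate 3 or without any 1 of the RPTi libraries.

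**Figure D5:**
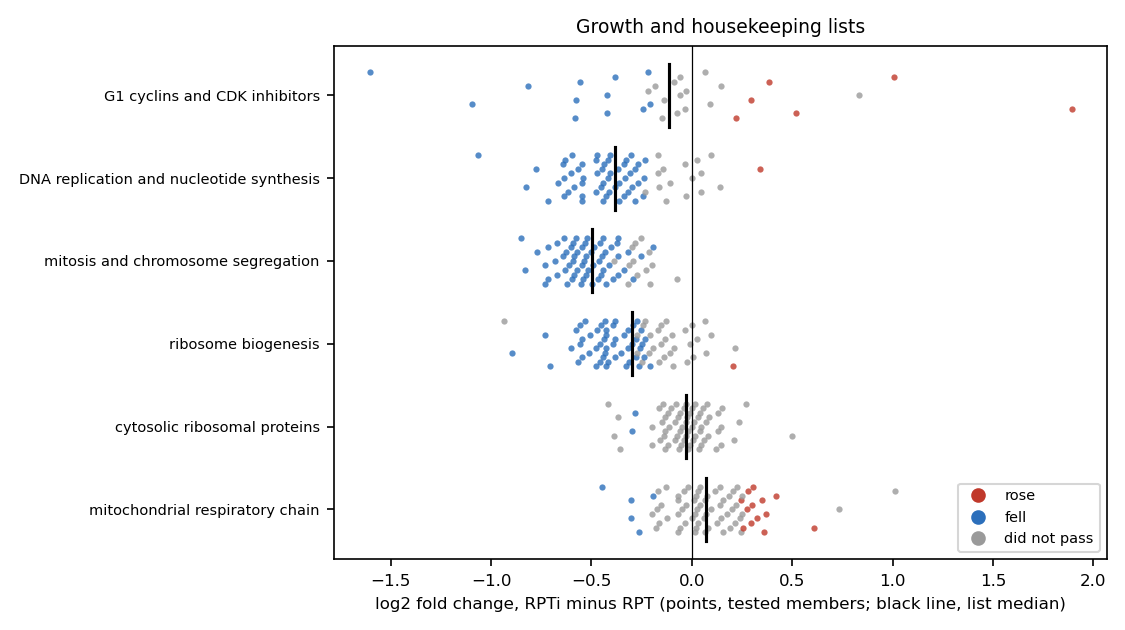
Log2 fold change in RPTi against RPT of every tested member (points, coloured red where it rose, blue where it fell and grey where it did not pass) of 6 lists, with the list median as a black line; the vertical position within a list only separates points. Replication, mitosis and ribosome biogenesis have medians of -0.38, -0.50 and -0.30, and ribosomal proteins lie around 0 with a median of -0.03.

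Most of the called genes of glycolysis and of antioxidant defence fell. Of 41 genes of glycolysis and hypoxia, 21 fell (51.2%) and 7 rose. The phosphofructokinase Pfkp fell 2.02-fold, from 99.4, 100.9 and 99.1 CPM to 51.7, 49.4 and 47.2 CPM, Hk1 1.64-fold, the lactate-making Ldha 1.42-fold and the glucose transporter Slc2a1 1.40-fold. Car12, a carbonic anhydrase of cartilage, rose 4.53-fold, from 6.56, 5.79 and 6.62 CPM to 27.5, 27.6 and 31.0 CPM. Of 37 metallothionein and NRF2 genes, 21 fell and 3 rose. Catalase, Cat, went from 151, 139 and 163 CPM to 54.0, 59.5 and 56.0 CPM (-1.42, SE 0.07), while RP held 165, 161 and 173 CPM, and Nqo1, a quinone reductase, fell 1.79-fold. The metallothionein Mt2A fell 2.19-fold and Sod2, mitochondrial superoxide dismutase, 2.08-fold. Of 49 genes of the integrated stress and unfolded protein responses, 19 rose and 6 fell (3 fell without RPTi replicate 2), none by 1 on the log2 scale. The chaperones Hyou1 and Calr rose 1.44-fold and 1.40-fold, and the factor Xbp1 1.48-fold, from 117, 122 and 109 CPM to 176, 174 and 162 CPM.

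Some abundant genes had narrow intervals around 0. The genes with the highest FPKM whose 95% interval lay within 0.25 of 0 were the mitochondrially encoded Mt-co2, Mt-cyb and Mt-co3, the elongation factor Eef1a1 and the ferritin light chain Ftl1. Eef1a1 read 7262, 7176 and 7923 CPM in RPT and 7139.5, 7347 and 6927 CPM in RPTi, with an interval of -0.17 to 0.04. Among the 22 Hox genes tested, the factors that hold positional identity along the body, 1 rose (Hoxd4, 1.91-fold; its adjusted p was 0.0677 with RPT replicate 2 left out) and 0 fell in edgeR's test, also at an unadjusted p under 0.05 and by DESeq2; with library totals 1 fell.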

How the data were processed

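RNA-seq of 9 libraries was deposited as whole-number counts per gene and as FPKM (fragments scaled by gene length and depth). The deposited counts and FPKM were made by the authors with HISAT2, HTSeq 0.11.2 and DESeq2 1.26.0 on Rnor_6.0, per the submitters' processing notes, which give no roles or order; for the annotation and the strand setting, not given in the sources used here, nothing is assumed, so overlapping, antisense and near-identical genes are uncertain. Groups came from the sample titles. Counts were tested with edgeR 4.0.16 (R 4.3.3; TMM, filterByExpr with a minimum count of 10, quasi-likelihood test, all 9 libraries, 1 coefficient per group), with Benjamini-Hochberg adjustment over 13856 genes. Genes were called at an adjusted p under 0.05; genes not tested held 0.0259% of the counts. FPKM served only to rank levels and for limma 3.58.1 on log2(FPKM + 1). The alternatives were other filters, DESeq2 size factors, library totals, the DESeq2 1.42.0 Wald test, limma, only 6 libraries, a replicate block and each library left out. The edgeR step was tested on simulated data in which few genes changed, in both directions. That test cannot judge the scaling in data where many genes change, as here. Of 2146 list entries, 2029 matched by symbol, 7 by an older symbol and 110 had no row; 1856 were tested and 180 were below the filter. The members and lists were chosen with earlier results of these data known.

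A few genes are not reported here. Named genes were the receptors, kinases, proteases and matrix genes central to the study, the 12 largest rises and falls of called genes with at least 5 CPM and no overlap, up to 4 called genes per list and direction with the smallest p, the gene of each list with the highest FPKM, the 8 most abundant called genes, 5 genes per side counted nearly in one group alone and 5 steady abundant genes. The following were outside this rule and chosen after their values were seen: Adam19, Adamts8, Axin2, Braf, Btc, Ccl20, Ccnb1, Cdkn1a, Chst11, Chsy1, Cnmd, Col10a1, Col11a1, Col9a2, Csgalnact1, Egf, Egfr, Egr1, Eln, Eno1, Epgn, Fos, Fosl2, Grem1, Hapln1, Hmga2, Hyal2, Id1, Ihh, Il33, Jun, Junb, Lox, Lrig1, Lum, Matn3, Mcm6, Mfap2, Mki67, Mmp10, Mmp12, Mmp14, Mmp2, Mmp9, Myc, Ncl, Nfkb1, Nog, Pcna, Phlda1, Piezo1, Piezo2, Plau, Plaur, Ptger2, Slc26a2, Slc2a1, Smad7, Socs3, Sox5, Sox6, Spred1, Spred2, Spred3, Spry4, Tagln, Tek, Tgfb1, Uxs1 and Vegfa. Also outside it were Cd14, Cd68, Col11a2 and the marker genes given only as counts.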

Additional observations from a re-analysis of the deposited data

How the results depend on the processing

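No called gene named here was called in the opposite direction under any alternative run. Of 279 named genes compared, 270 to 279 kept the same call (risen, fallen or not passed), depending on the setting. The stricter filter gave 270 and left 9 untested, and the fit with only the 6 libraries gave 274 and left 2 untested. With limma on log2(FPKM + 1), 2318 genes rose and 3661 fell (38.8% rising), and the genes past 1 on the log2 scale numbered 255 risen and 223 fallen; that scale compresses the fold changes of genes with low FPKM. Leaving out 1 library gave 2375 to 2772 risen and 2358 to 2904 fallen genes. Deviations from the group means of same-numbered RPT and RPTi libraries correlated at -0.03, 0.06 and 0.04. So few pairs cannot tell whether the replicate numbers in the titles pair the samples. A replicate block gave 3255 risen and 3443 fallen genes, against 2825 and 2920 without it. With the block Sox5, Map2k2, Mmp14 and Egfl7 passed with a rise (0.19, 0.25, 0.11 and 0.30; adjusted p = 0.0425, 0.0109, 0.0345 and 0.0319), 9 cytosolic ribosomal protein genes fell and 6 rose, and in the respiratory chain 23 rose and 10 fell; with limma 15 ribosomal protein genes fell and 13 lysosome genes rose. Library totals turned the median of 5 lists below or to 0 (small leucine-rich proteoglycans, Wnt pathway, lysosome, interferon response and ion channels), and Eef1a1 then passed with a fall (-0.13, adjusted p = 0.0289). Depth limits the scarce genes: 1 count was worth 0.0261 to 0.0323 CPM, so that Il6, F2rl2, Ccl20, Ihh and Col10a1 rest on few counts.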

Other observations

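The receptor for aromatic hydrocarbons, Ahr, a ligand-activated transcription factor, went from 53.6, 48.6 and 62.5 CPM in RPT to 23.9, 21.9 and 24.8 CPM in RPTi (-1.22, SE 0.10, adjusted p = 7.32e-07), and RP stood between at 44.7, 39.7 and 46.5 CPM. Of 8 tested genes of its axis 5 fell and 0 rose in edgeR's test, also at an unadjusted p under 0.05 and by DESeq2. Its target Cyp1b1, a monooxygenase, fell 1.36-fold, and Tiparp, which represses the receptor, fell 1.67-fold. In the circadian clock 7 of 20 tested genes fell and 3 rose: Npas2, a partner of the core clock, fell 2.55-fold and the clock repressor Bhlhe40 fell 1.80-fold, while Per1 rose 1.23-fold. With limma Per1 did not pass (adjusted p = 0.0525). Of 40 genes of cholesterol synthesis and lipid sensing, 14 fell and 7 rose; the enzyme Sqle fell 1.37-fold, the exporter Abcg1 fell 3.63-fold, and the lipid carrier Apoe rose 1.46-fold.

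Of 58 lysosome and autophagy genes, 21 rose and 10 fell, none by 1 or more on the log2 scale. The collagen-degrading cathepsin Ctsk rose 1.56-fold, from 24.3, 22.1 and 26.2 CPM to 35.7, 39.6 and 37.9 CPM, and the autophagy receptor Sqstm1 fell 1.54-fold. Among 53 genes of G protein signalling, which include adenylate cyclases, phosphodiesterases and phospholipases, 21 fell and 11 rose (6 rose with library totals): Gna15, a G protein of many receptors, went from 5.26, 5.45 and 4.85 CPM to 1.22, 1.36 and 1.2005 CPM, the receptor adaptor Arrb1 fell 3.29-fold and the G protein brake Rgs16 fell 2.99-fold, from 11.8, 11.1 and 12.7 CPM to 3.67, 4.65 and 3.60 CPM. Of 43 genes of the interferon response and antigen presentation, 8 rose and 5 fell, shares below the background; the risen count was 5 without RPT replicate 3 or any 1 of the RPTi libraries, and the fallen count was 2 without RPTi replicate 2 and 3 without RPTi replicate 3.

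A few genes were counted nearly in one group alone. Gdf6, a growth factor related to Gdf5, had 86, 86 and 123 counts in the RPT libraries and 0, 0 and 3 in RPTi, while RP had 12, 10 and 18. Npvf, a neuropeptide precursor, had 3, 0 and 0 counts in RPT and 69, 53 and 68 in RPTi, with 36, 12 and 21 in RP. The natriuretic peptide convertase Corin had 0 counts in each RPT library and 10, 23 and 16 in RPTi.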
